A study of Mus musculus with 6 samples.

Results

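DNA replication and S phase genes were examined in the livers of sickle cell mice. The set held 37 genes, chosen by name for their place in genome duplication but with earlier results of these data known. All 37 were found among the 24421 gene symbols of the count tables. It covers origin licensing (9 genes), helicase activation (4), polymerases and the sliding clamp (7), lagging strand joining (2), nucleotide supply (4), chromatin assembly and cohesion (4), repair and checkpoint factors (3), and regulators of entry into S phase (4).

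Liver total RNA was sequenced from Townes mice at 7 months of age, in 3 libraries labelled AS and 3 labelled SS. In both groups human alpha-globin stands in place of the mouse gene, written Hbatm1(HBA)Tow. The SS strain carries Hbbtm2(HBG1,HBB*)Tow, a human gamma- and sickle beta-globin replacement, and the AS strain pairs that same allele with Hbbtm3(HBG1,HBB)Tow, which holds normal human beta-globin. The AS controls are thus sickle carriers, not wild-type mice, and human globins replace mouse globins in both groups. The labels give no sex and do not say that each replicate is its own animal, so p-values cover only sample-to-sample spread, which may be technical.

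Cells copy their genome once per division. In G1, the origin recognition complex with Cdc6 and Cdt1 loads the MCM helicase on DNA. Cyclin-dependent kinases then activate that helicase with Cdc45 and the GINS complex, and polymerases, the sliding clamp and nucleotide synthesis carry S phase through. E2F factors, held back by the retinoblastoma family until cyclin kinases act, drive many of these genes. Most hepatocytes of an adult liver are not dividing, whereas blood cell precursors divide often.

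The libraries held 6670011 to 13700194 reads in genes. The first principal component of all tested genes carried 41.6% of the variance, with AS replicate 1 and SS replicate 3 at its ends. AS replicates 2 and 3 lay closest together, with a chi-square per gene of 3.98 against 27.9 to 170 in the other library pairs. In SS replicate 1, 54.0% of all records fell in no counted feature, against 40.7% to 43.9% in the other libraries. It also had the most genes with a read (16595). Hepatocyte markers, led by Alb, were abundant in all 6 libraries, at a summed 97210 to 143281 CPM (gene reads scaled to a common library size with trimmed-mean factors) in AS and 81446 to 109023 CPM in SS. None of those 10 genes was called. Fitted log2 fold changes of SS over AS were below 0 for 9 of them and above 0 for 1, with a median of -0.35. In 2 of the 10 every SS library stood below every AS library, against 9.04% of all genes.

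Mean CPM was higher in SS than in AS liver for 34 of the 37 replication genes (all but Mcm10, Gins1 and Tk1), but few passed the test. Esco2, Chtf18 and Neil3 rose, and no member fell. Calls here mean a Benjamini-Hochberg adjusted p below 0.05 in the quasi-likelihood test of edgeR, over the 12622 genes tested. Of 37 members, 36 were tested and 3 were called higher, against 0.911% of all genes tested. All 3 passed the filter on low counts through their SS libraries alone, so their count is not read against that share, and none of the 31 members above the filter's limit in some AS library was called. None was called lower, against 0.0555% of all genes. At an unadjusted p under 0.05, edgeR placed 19 members higher and 0 lower, against 9.12% and 3.58% of all genes. The 19 include all 5 members that passed the filter through SS alone (Cdc6, Clspn, Chtf18, Esco2 and Neil3). They are therefore not read against that share. DESeq2 called 6 members higher (Chtf18, Esco2, Lig1, Mcm2, Mcm6 and Neil3), against 1.92% of the genes it tested, and 0 lower. These 6 include the 3 edgeR calls, each with at most 1 read over the AS libraries. The calls rested on each library: from 3 members called higher, edgeR kept 0 without any 1 AS library or without SS replicate 2, and 1 (Esco2) without SS replicate 1 or 3 or with AS replicates 2 and 3 summed. Without AS replicate 1 and SS replicate 3 together it called 6 higher (Ccnd1, Chtf18, Esco2, Mcm2, Mcm6 and Neil3) and Mcm10 lower.

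Log2 fold changes are SS over AS throughout. They were above 0 for 33 of the 36 tested members, against 56.3% of all genes. Their median was 0.98, from -0.64 to 7.70, beside 0.08 over all genes. In 20 of the 36 every SS library stood above every AS library, against 12.1% of all genes, and in 0 every SS library stood below, against 9.04%. The 33 and the 20 both include the 5 members tested through SS alone, so they are not read against those shares. The other 31 tested members had a median of 0.79. Orc1, the member not tested, also had every SS library above every AS library. The median stayed between 0.85 and 1.16 when each library was left out in turn.

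The 37 genes took a small share of the transcriptome in both groups. They held 0.0248%, 0.0281% and 0.0304% of gene reads in AS replicates 1, 2 and 3, and 0.0419%, 0.0478% and 0.0640% in SS replicates 1, 2 and 3. Even the lowest SS share was above the highest AS share. The exact 95% intervals of those libraries were 0.0404 to 0.0435 and 0.0295 to 0.0314. They cover counting error within each library and not the spread between samples. These shares use no scaling factor. With trimmed-mean factors the summed levels were 298 to 315 CPM in AS and 386 to 531 CPM in SS. Reads were missing for 5, 3 and 4 members in AS replicates 1, 2 and 3, and for none in any SS library. Over all genes, too, more had a read in each SS library (15565 to 16595) than in any AS library (14271 to 15106). In a piece of liver, more cells of a type and more RNA per cell cannot be told apart.

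**Figure D1:**
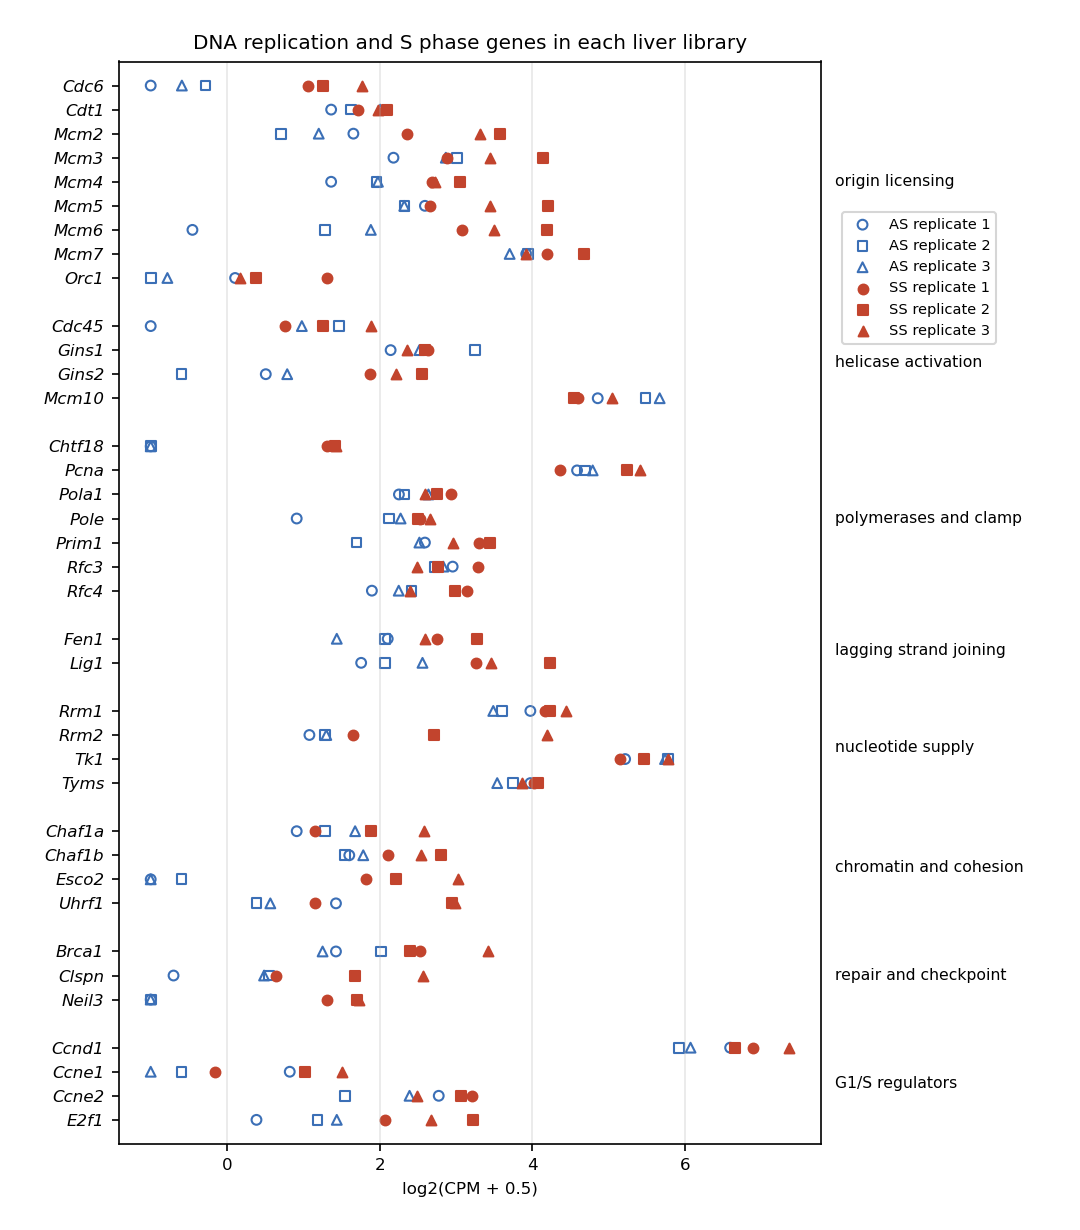
Each of the 37 genes in each library as log2(CPM + 0.5), grouped by role; open blue symbols are AS replicates and filled red symbols are SS replicates. Neil3, Chtf18 and Esco2 sit at or near 0 reads in AS, while Tk1, Tyms, Pcna and Mcm10 show mixed or overlapping libraries.

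Origin licensing genes had fitted values above 0 in all 8 of those tested, but none was called. Unadjusted p-values by edgeR were under 0.05 for 5 of them, and in 5 the SS libraries stood wholly above AS. Over all genes these shares were 9.12% (higher) and 12.1%, and 56.3% had fitted values above 0. Cdc6, tested through SS alone, is in each count. The group's median log2 fold change was 1.20. Mcm2 (chromosome 6, 88883474 to 88898780, mm10), a subunit of the hexameric helicase, was at 2.65, 1.13 and 1.80 CPM in AS and 4.62, 11.4 and 9.47 CPM in SS. The groups did not overlap, and SS replicate 1 was the lowest of its group. The means were 1.86 ± 0.762 (SD, n = 3) and 8.49 ± 3.49 CPM. The log2 fold change of Mcm2 was 2.18 (SE 0.501, 95% interval 1.07 to 3.28), with an adjusted p of 0.0831 by edgeR.

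Mcm6, another subunit of that hexamer, is described because of its values. It was at 0.230, 1.93 and 3.19 CPM in AS and at 7.92, 17.8 and 10.8 CPM in SS, with a log2 fold change of 2.74 (SE 0.670, edgeR adjusted p = 0.107). AS replicate 1 was far below the other AS libraries, and the log2 fold change was 2.21 without it and 3.56 without AS replicate 3. Fitted values varied among the 6 subunits. Mcm4 and Mcm5 had log2 fold changes of 1.15 and 1.24 without overlap of the groups, whereas Mcm3 (0.91) and Mcm7 (0.45) overlapped. Within each library the ratio of Mcm2 to Mcm7 was 0.181, 0.0761 and 0.144 in AS and 0.261, 0.456 and 0.651 in SS. The ratio of Mcm6 to Mcm7 was 0.0157, 0.130 and 0.255 in AS and 0.448, 0.715 and 0.742 in SS. Neither ratio, which no scaling factor alters, overlapped between the groups. These pairs were picked after their values were seen and have no test.

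The loading factors were scarce. Cdc6, which helps the origin recognition complex load the helicase, had 0, 2 and 2 reads in AS and 12, 26 and 37 in SS. Its log2 fold change was 3.72 (SE 0.940, edgeR adjusted p = 0.116), and the groups did not overlap. It was 4.37 without AS replicate 2 and 2.88 without AS replicate 1 and SS replicate 3. Orc1, the largest subunit of the recognition complex, had 5, 0 and 1 reads in AS and 15, 11 and 8 in SS, too few for the test. Its CPM did not overlap either, at 0.576, 0 and 0.0818 against 1.98, 0.798 and 0.626. Cdt1, the loading partner of Cdc6, overlapped between groups (0.29, SE 0.488). Its ratio to Gmnn, the gene of the Cdt1 inhibitor geminin, was 0.159, 0.130 and 0.186 in AS and 0.309, 0.248 and 0.277 in SS. Mean Cdt1 was 2.72 CPM in AS and 3.33 CPM in SS, a smaller difference than that of the ratio. The ratio thus also reflects Gmnn, whose mean level was lower in SS, and it has no test.

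Promoter sequences are shown for the licensing genes and the polymerase in which a form of the E2F consensus was found before the start site. RefSeq windows (GRCm38.p6) of 300 bases, 250 before and 50 after the annotated start, were matched by symbol for 30 of 37 members, 35 windows in all. The letters TTTCCCGC and TTTGGCGC were searched on both strands; they differ in their middle bases, so no stretch matches both. Capitals mark the match, with 30 bases on either side, 5′ to 3′ on the strand of the gene.
Mcm5, plus strand, chr8:75109330-75109397: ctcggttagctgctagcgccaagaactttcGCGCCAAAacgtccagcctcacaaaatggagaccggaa
Mcm6, minus strand, chr1:128359778-128359845: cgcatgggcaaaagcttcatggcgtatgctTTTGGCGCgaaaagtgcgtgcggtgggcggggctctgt
Mcm6, minus strand, chr1:128359715-128359782: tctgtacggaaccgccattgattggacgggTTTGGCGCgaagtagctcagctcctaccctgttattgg
Mcm7, minus strand, chr5:138172011-138172078: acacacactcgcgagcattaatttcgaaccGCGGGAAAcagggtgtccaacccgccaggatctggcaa
Cdc6, plus strand, chr11:98907983-98908050: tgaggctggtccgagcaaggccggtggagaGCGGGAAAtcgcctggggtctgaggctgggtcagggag
Pola1, minus strand, chrX:93632256-93632323: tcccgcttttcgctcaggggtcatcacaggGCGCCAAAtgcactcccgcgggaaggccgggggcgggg
Mcm6 holds the match on the gene's own strand in both places, starting 110 and 47 bases before the start. In Mcm5, Mcm7, Cdc6 and Pola1 the match is the reverse complement, at 149, 165, 138 and 138 bases before the start.

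A match was present in 8 of the 35 member windows, or 22.9% (exact 95% interval 10.4 to 40.1). It was present in 514 of all 32851 windows, or 1.56%. Mcm3, Cdt1 and Rfc3 held the remaining matches. The member windows were richer in G and C than all windows, with a median of 57.7% against 52.7%, and 2.97% of the 11677 windows at or above the member median held a match. Fold changes of members with and without a match covered overlapping ranges. With a match the median log2 fold change was 0.68 (8 genes, 0.04 to 3.72), beside 1.12 for the 21 tested members whose windows held none (-0.64 to 7.70). A match is a description of letters and not a measured binding site.

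Helicase activation genes split. Gins2, a subunit of the GINS complex that joins the helicase, was at 0.921, 0.161 and 1.23 CPM in AS and 3.17, 5.37 and 4.15 CPM in SS. Every SS library was above every AS library. The means were 0.770 ± 0.549 and 4.23 ± 1.10 CPM (SD, n = 3), and the log2 fold change was 2.37 (SE 0.668, edgeR adjusted p = 0.161). Of its exon bases, 67.3% also lie in the opposite-strand gene Gse1, and whether counting used strand was not given. Gins1, another subunit of that complex, had overlapping groups. Its values were 3.92, 9.02 and 5.23 CPM in AS and 5.67, 5.51 and 4.62 CPM in SS, with a log2 fold change of -0.19 (SE 0.420) that was above 0 with library totals alone or without AS replicate 2. The ratio of Gins2 to Gins1 was 0.235, 0.0179 and 0.234 in AS and 0.558, 0.974 and 0.898 in SS.

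Cdc45, the helicase cofactor, overlapped between groups at 0, 2.26 and 1.47 CPM in AS and 1.19, 1.89 and 3.21 CPM in SS, with a log2 fold change of 0.79 (SE 0.960) that ran from 0.19 with AS replicate 1 omitted to 1.44 with AS replicate 2 omitted. It was -0.23 when AS replicate 1 and SS replicate 3 were both omitted. Mcm10, a firing factor and among the most abundant members, is named for lying below 0. It was at 28.4, 44.1 and 50.3 CPM in AS and 23.6, 22.8 and 32.5 CPM in SS. SS replicate 3 overlapped AS replicate 1. The log2 fold change of Mcm10 was -0.64 (SE 0.290, edgeR adjusted p = 0.397). Without AS replicate 1 and SS replicate 3 it was called lower, at -1.03 with an adjusted p of 0.0203 by edgeR.

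Among polymerase and clamp genes Chtf18 rose and the core replicative genes were not called. Chtf18 (chromosome 17, 25718926 to 25727419), the large subunit of an alternative clamp loader that acts in sister chromatid cohesion, had no read in any AS library. In SS it was at 1.98, 2.18 and 2.19 CPM, a tight group of 2.12 ± 0.118 (SD, n = 3) from 73 reads. Against a floor of 3 reads over the AS group, Chtf18 was 19.3-fold higher in SS. The exact 95% counting interval of the ratio, which uses no floor, began at 15.3. The adjusted p was 0.0444 by edgeR. The call ended without any 1 of the 6 libraries, at adjusted p-values of 0.0879 to 0.182, and with AS replicates 2 and 3 summed as 1 sample (0.134). Of the exon bases of Chtf18, 7.53% also lie in Gng13 on the opposite strand.

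Pcna, the sliding clamp, was at 23.5, 25.3 and 27.1 CPM in AS and 20.1, 37.1 and 42.0 CPM in SS. SS replicate 1 was below all AS libraries and the other SS libraries were above them. The log2 fold change of Pcna was 0.39 (95% interval -0.28 to 1.06, edgeR adjusted p = 0.611). The DNA polymerase and primase genes Pole (0.76) and Prim1 (0.99) had SS libraries wholly above AS, while Pola1 (0.38) and the clamp loader genes Rfc4 (0.73) and Rfc3 overlapped. Rfc3 was the gene nearest to no difference, at 0.04 (95% interval -0.78 to 0.85), and its sign turned with median-ratio scaling. All 7 genes of the group had fitted values above 0 with trimmed-mean scaling, against 56.3% of all genes, with a median of 0.73. Chtf18, tested through SS alone, is in that count.

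Both lagging strand genes had SS libraries above AS, against 12.1% of all genes, and neither was called. Lig1 (chromosome 7, 13277283 to 13311433), the ligase that seals Okazaki fragments, was at 2.88, 3.70 and 5.40 CPM in AS and 9.10, 18.3 and 10.5 CPM in SS. Its lowest SS library, replicate 1, was above its highest AS library, replicate 3. The means were 3.99 ± 1.28 and 12.6 ± 4.94 CPM (SD, n = 3). The log2 fold change of Lig1 was 1.65 (SE 0.409, edgeR adjusted p = 0.112). Fen1, the nuclease that trims fragment flaps, differed by 1.12 (SE 0.429, edgeR adjusted p = 0.316), and 78.8% of its exon bases lie under the antisense gene Gm10143.

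Of the nucleotide supply genes, Rrm2 stood apart from the others. Rrm2 (chromosome 12, 24708241 to 24714146) is the small subunit of ribonucleotide reductase, which makes deoxynucleotides. It was at 1.61, 1.93 and 1.96 CPM in AS and 2.64, 6.02 and 17.8 CPM in SS. The groups did not overlap, but the SS libraries spread widely and SS replicate 3 was the highest. The log2 fold change of Rrm2 was 2.26 (SE 0.646, edgeR adjusted p = 0.165), and 1.24 without SS replicate 3. Rrm1, the large subunit, was at 15.2, 11.6 and 10.7 CPM in AS and 17.4, 18.3 and 21.3 CPM in SS, a log2 fold change of 0.60 (SE 0.280). The ratio of Rrm2 to Rrm1 was 0.106, 0.167 and 0.183 in AS and overlapped that of SS, at 0.152, 0.329 and 0.835. Thymidylate synthase, Tyms (0.23), and thymidine kinase, Tk1 (-0.11, and above 0 with library totals alone or without SS replicate 1), had overlapping groups. The mean level of Tk1 was 48.0 ± 9.86 (SD, n = 3) in AS and 44.3 ± 9.68 in SS, in CPM.

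Among chromatin assembly and cohesion genes Esco2 rose. Esco2 (chromosome 14, 65819038 to 65833994) encodes an acetyltransferase that establishes sister chromatid cohesion during S phase. It had 1 read in the 3 AS libraries together and 178 reads in SS. Its levels were 0, 0.161 and 0 CPM in AS and 3.03, 4.13 and 7.67 CPM in SS. The ratio of summed levels was 141, with a counting interval of 25.05 to 5615. The adjusted p was 0.0153 by edgeR. The call held without SS replicate 1 and without SS replicate 3, and ended without SS replicate 2 or any AS library, at adjusted p-values of 0.0507 to 0.0853, and with limma-voom (0.0577).

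The other members of that group were not called. Uhrf1, which recruits the maintenance DNA methyltransferase to new DNA, was at 2.19, 0.805 and 0.981 CPM in AS and 1.72, 7.18 and 7.43 CPM in SS. SS replicate 1 lay within the AS range and the other SS libraries lay far above it (log2 fold change 2.03, SE 0.667, edgeR adjusted p = 0.242). The chromatin assembly factor subunits Chaf1b and Chaf1a had log2 fold changes of 0.98 and 0.79, and that of Chaf1a was 0.09 without AS replicate 1 and SS replicate 3. Chaf1b did not overlap between groups and Chaf1a did, with 52.5% of its exon bases also in the opposite-strand gene Ubxn6.

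All 3 repair and checkpoint members had SS libraries above AS, and Neil3 rose. Over all genes 12.1% had SS libraries wholly above AS, and Neil3 and Clspn were tested through SS alone. Neil3 (chromosome 8, 53586867 to 53639065), a DNA glycosylase of proliferating cells, had no read in AS. In SS it was at 1.98, 2.76 and 2.82 CPM, a mean of 2.52 ± 0.467 (SD, n = 3) from 89 reads. It was 23.6-fold higher against a floor of 3 reads over the AS group. The exact 95% counting interval of the ratio, which uses no floor, began at 18.8. The adjusted p was 0.0374 by edgeR. Leaving out any 1 library ended the call, at 0.0728 to 0.173, as did summing AS replicates 2 and 3 (0.0996). Brca1, of homologous recombination, had a log2 fold change of 1.43 (SE 0.485) and Clspn, the fork checkpoint adaptor, 2.21 (SE 0.844), with edgeR adjusted p-values of 0.254 and 0.316. For Clspn the log2 fold change was 1.51 without SS replicate 3.

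**Figure D2:**
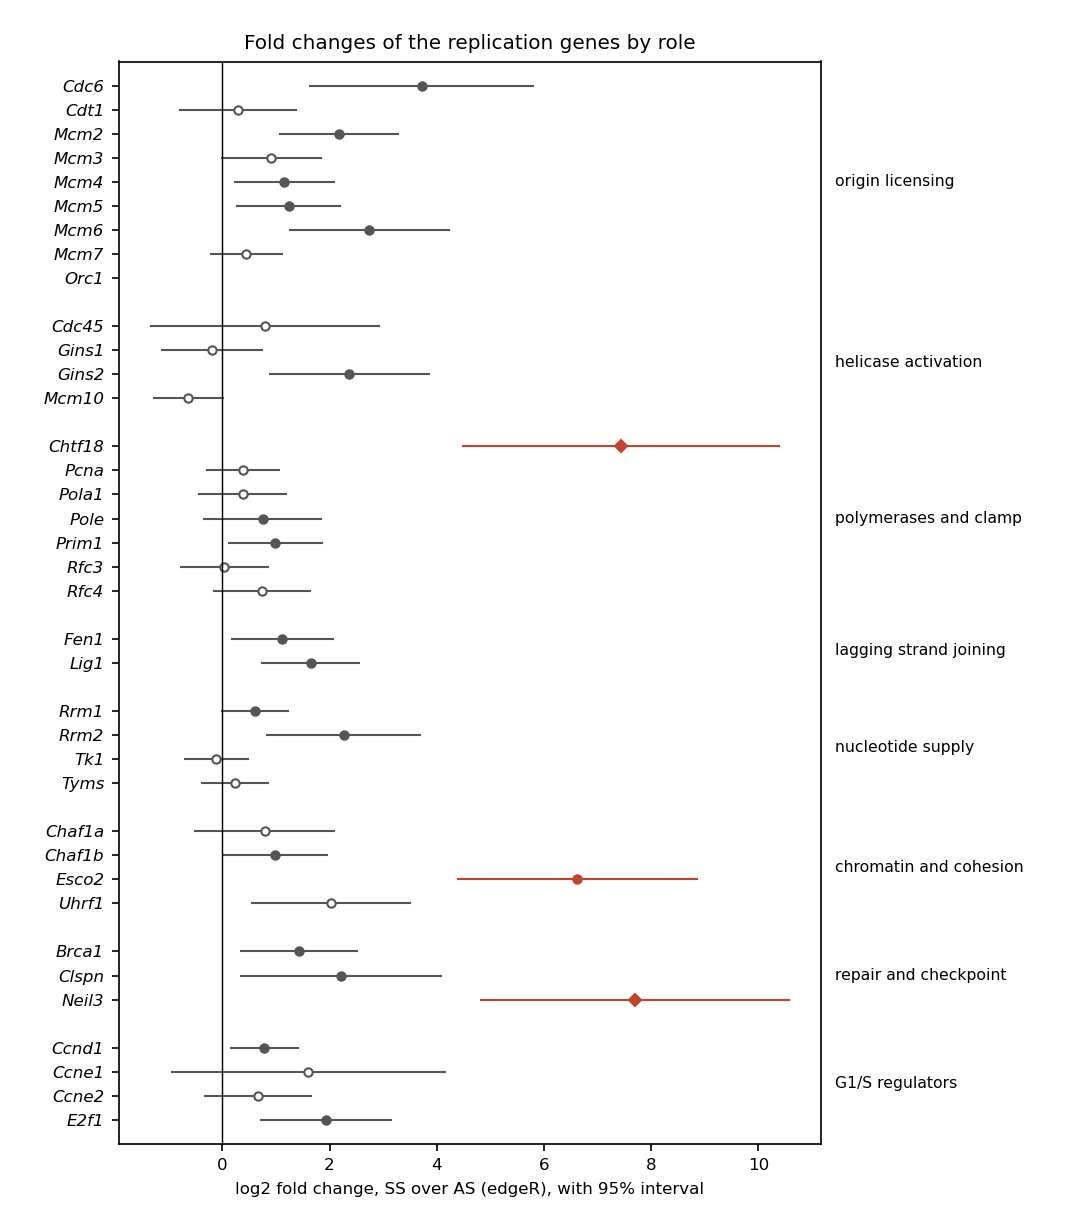
Log2 fold change of SS over AS for the 36 tested members with 95% intervals from edgeR, by role. Red marks called genes, filled symbols mark genes whose groups did not overlap, and diamonds mark Chtf18 and Neil3, whose fitted values depend on the prior count because AS had 0 reads; Orc1 was not tested.

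The regulators of S phase entry were all fitted above 0, as were 56.3% of all genes, and none was called. E2f1 (chromosome 2, 154559407 to 154569892), an activating E2F factor, was at 0.806, 1.77 and 2.21 CPM in AS and 3.69, 8.85 and 5.87 CPM in SS. The groups did not overlap, with means of 1.60 ± 0.717 and 6.14 ± 2.59 CPM (SD, n = 3). Its log2 fold change was 1.93 (SE 0.550, edgeR adjusted p = 0.163). Ccnd1 (chromosome 7, 144929931 to 144939925), the cyclin that couples growth signals to the retinoblastoma proteins, was the most abundant member. Of its exon bases, 23.4% also lie in the opposite-strand gene LTO1. It was at 95.8, 60.1 and 66.7 CPM in AS and 118, 100.3 and 163.7 CPM in SS. Its lowest SS library, replicate 2, was just above AS replicate 1. The means were 74.2 ± 19.0 and 127 ± 32.7 CPM (SD, n = 3), with a log2 fold change of 0.78 (SE 0.283, edgeR adjusted p = 0.289). Without AS replicate 1 and SS replicate 3, Ccnd1 was called higher at the same log2 fold change, 0.78, and an edgeR adjusted p of 0.0359.

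The E-type cyclins, which activate the kinase that fires origins, overlapped between groups. Ccne1 was at 1.27, 0.161 and 0 CPM in AS and 0.396, 1.52 and 2.35 CPM in SS, with a log2 fold change of 1.61 (SE 1.15, edgeR adjusted p = 0.579). Ccne2 was at 6.33, 2.42 and 4.74 CPM in AS and 8.71, 7.83 and 5.09 CPM in SS, with a log2 fold change of 0.66 (SE 0.444, edgeR adjusted p = 0.552), and 17.4% of its exon bases also lie in Ints8 on the opposite strand. AS replicate 1 was the highest AS library for both cyclins. Without it the log2 fold change of Ccne1 was 4.36, and without AS replicate 3 it was 0.95.

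The size of the difference varied with the level of the gene. Of the 7 members at 10 CPM or more over all libraries (Ccnd1, Mcm7, Mcm10, Pcna, Rrm1, Tk1 and Tyms) none was called, and their median log2 fold change was 0.39, beside -0.04 for all genes of that level. The 20 members between 3 and 10 CPM had a median of 1.05 beside 0.36 for all such genes, again with 0 called. The 9 tested members below 3 CPM had a median of 2.37 beside 0.61, and all 3 calls fell there. At the low end the filter plays a part: Cdc6, Clspn, Chtf18, Esco2 and Neil3 were under its limit of 0.952 CPM by library totals in every AS library and entered the test through SS alone. The other 31 tested members had a median of 0.79. The members' order of level per kilobase of exon also differed between groups. Ccnd1, Pcna and Tk1 led in both, at 15.8, 10.5 and 9.23 CPM per kb in AS and 27.0, 13.8 and 8.52 CPM per kb in SS. Rrm2 stood at rank 19 in AS (0.663 CPM per kb) and rank 8 in SS (3.18), and Mcm6 at rank 23 (0.382) and rank 13 (2.61).

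**Figure D3:**
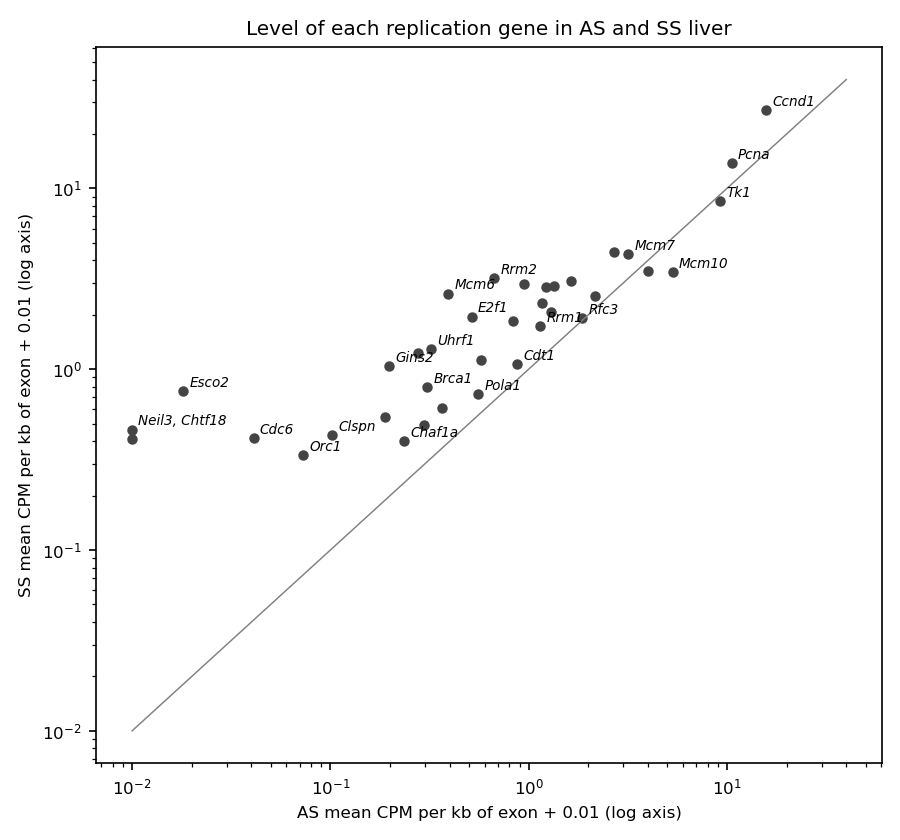
Mean CPM per kilobase of exon of each of the 37 genes in AS (x axis) and SS (y axis), both log axes with 0.01 added; the line marks equal levels. Ccnd1, Pcna and Tk1 lie near the line at the upper end, and Neil3, Chtf18, Esco2 and Cdc6 lie farthest above it at the lower end.

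Other genes of the replication machinery came from a list of 74 drawn up by function. Of these, 65 were tested, with 2 called higher, 0 lower and a median log2 fold change of 0.29. Over all genes 0.911% were called higher. At an unadjusted p under 0.05, edgeR placed 9 higher and 1 lower, against 9.12% and 3.58% of all genes. How many genes of this list passed the filter through SS alone was not counted. The 2 and the 9 are therefore not read against those shares. Top2a, the topoisomerase that untangles replicated DNA, rose from 1.27, 0.967 and 0.818 CPM to 7.65, 10.4 and 23.8 CPM (log2 fold change 3.78, SE 0.534, edgeR adjusted p = 0.0110). Pclaf, which binds the sliding clamp, rose from 0.345, 0 and 0.0818 CPM to 3.43, 3.12 and 4.38 CPM (4.52, SE 0.851, edgeR adjusted p = 0.0426). It too was under the filter's limit in every AS library and was tested through SS alone, and its log2 fold change was 5.82 without AS replicate 1. The single-strand binding subunits Rpa1 (0.12, SE 0.261) and Rpa2 (0.01, SE 0.411) overlapped between groups. Without any 1 AS library the call of Top2a ended, at edgeR adjusted p-values of 0.0562 to 0.0723, and that of Pclaf ended without any 1 of the 6 libraries, at 0.0781 to 0.214. Fitted values were above 0 for 44 genes of the list and below 0 for 21, against 56.3% above 0 over all genes, a share not far from that of the list.

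Control genes of the G1 to S transition were called in 3 of 30 tested, from a list of 32, and none was called lower. All 30 had fitted values above 0 with trimmed-mean scaling, with a median of 0.61. Over all genes 0.911% were called higher and 56.3% had fitted values above 0. Genes of this list that passed the filter through SS alone were not counted, so its counts are not read against those shares. E2f2, another activating E2F factor, rose from 0.806, 0.644 and 1.23 CPM to 6.86, 14.5 and 12.6 CPM (log2 fold change 3.61, SE 0.481, edgeR adjusted p = 0.00860). Ccna2, the S phase cyclin, rose from 6.56, 6.93 and 5.89 CPM to 17.9, 25.7 and 18.3 CPM (1.68, SE 0.299, edgeR adjusted p = 0.0341). Cdkn1a, which encodes the p21 inhibitor of cyclin kinases, rose with them. It was at 13.9, 5.80 and 4.01 CPM in AS and 37.6, 42.9 and 51.2 CPM in SS (2.47, SE 0.431, edgeR adjusted p = 0.0322). Omitting single libraries ended these calls at edgeR adjusted p-values of 0.0551 to 0.0640 for E2f2 (AS replicate 1 or 2, or SS replicate 2) and 0.0592 to 0.203 for Ccna2 (any library but SS replicate 3). For Cdkn1a they were 0.0581 to 0.176 (any but AS replicate 1). Rb1, the retinoblastoma gene, overlapped between groups at 0.57 (SE 0.435).

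Mitosis markers had larger fitted fold changes than most replication genes, a difference between lists that has no test. Of 20 such markers 10 were called higher, against 0.911% of all genes, with a median log2 fold change of 3.54 (0.94 to 4.97). How many of them passed the filter through SS alone was not counted, so the 10 are not read against that share. Mki67, a marker of cycling cells, rose from 5.41, 1.45 and 1.31 CPM to 28.8, 42.3 and 54.5 CPM (3.94, SE 0.535, edgeR adjusted p = 0.00903). Leaving out AS replicate 1 gave Mki67 a log2 fold change of 4.92. It was no longer called without AS replicate 2 (edgeR adjusted p = 0.0551) or SS replicate 2 (0.0593). Summed mitosis markers were 19.2 to 26.3 CPM in AS and 143 to 237 CPM in SS. Summed replication genes without Ccnd1 were 202 to 248 CPM in AS and 268 to 375 CPM in SS. The ratio of the second sum to the first was 7.71, 12.6 and 10.2 in AS replicates 1, 2 and 3 and 1.88, 1.85 and 1.55 in SS. Every SS ratio was below every AS ratio, a description with no test. Sums weigh abundant genes most, and the 7 members at 10 CPM or more, Ccnd1 included, had a median log2 fold change of 0.39.

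**Figure D4:**
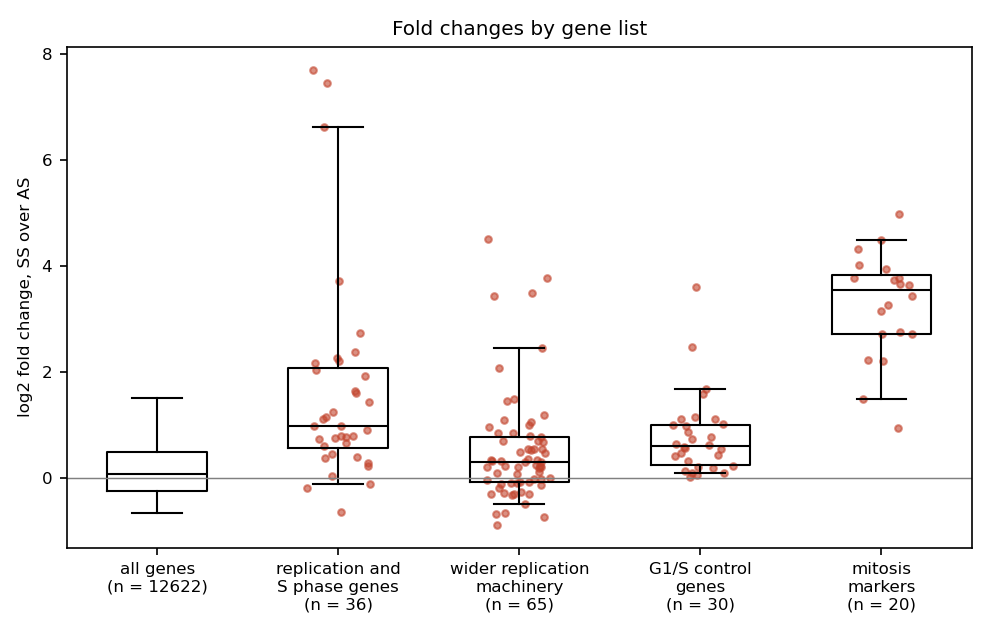
Log2 fold changes of SS over AS for all genes tested and 4 lists; boxes span the quartiles with the median, whiskers the 5th to 95th percentiles, and points are genes. Medians rise from 0.29 in the wider replication machinery and 0.61 in G1/S control genes to 0.98 in the replication and S phase genes and 3.54 in mitosis markers, beside 0.08 in all genes.

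Summed markers of erythroid and of granulocyte precursors were higher in every SS library than in any AS library. Of 11 erythroid precursor markers 10 were tested and 4 called higher, and their summed level was 46.9 to 63.0 CPM in AS and 253 to 504 CPM in SS. Klf1, an erythroid transcription factor, was fitted at -0.86 (SE 0.491) and not called. Gata1 was at 0 in all AS libraries. Of 10 granulocyte precursor markers 7 were tested and 2 called higher, with sums of 3.60 to 8.87 CPM in AS and 56.5, 115 and 27.3 CPM in SS replicates 1, 2 and 3. Elane, Ctsg, Ms4a3 and Ltf were at 0 in all AS libraries. Of 10 monocyte and macrophage markers 3 were called higher. Their sums overlapped between groups, at 427 to 563 CPM in AS and 490 to 1307 CPM in SS. Over all genes 0.911% were called higher. A marker at 0 in AS could pass the filter only through SS, so these counts are not read against that share.

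Markers of other liver cells were called in few cases, where 0.911% of all genes were called higher. Cholangiocyte markers summed to 92.7 to 114 CPM in AS and 189 to 288 CPM in SS, with 1 of 5 tested of the 6 called higher. Not all of these markers moved with the sum. Their median log2 ratio to the AS mean, with 0.5 CPM added, was 1.17, 0.45 and -0.28 in SS replicates 1, 2 and 3. Stellate cell markers summed to 340 to 402 and 407 to 658 CPM, with 1 of 7 called higher. Lymphocyte markers summed to 8.26 to 11.6 and 14.9 to 26.5 CPM, with 0 of 6 tested of the 8 called. Endothelial markers overlapped, at 246 to 346 and 233 to 474 CPM, with 0 of 7 called. For the lists with 0 called, edgeR gave an unadjusted p under 0.05 to 2 lymphocyte, 1 endothelial and 1 hepatocyte marker. The part of these cell types in the replication gene differences was not tested.

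**Figure D5:**
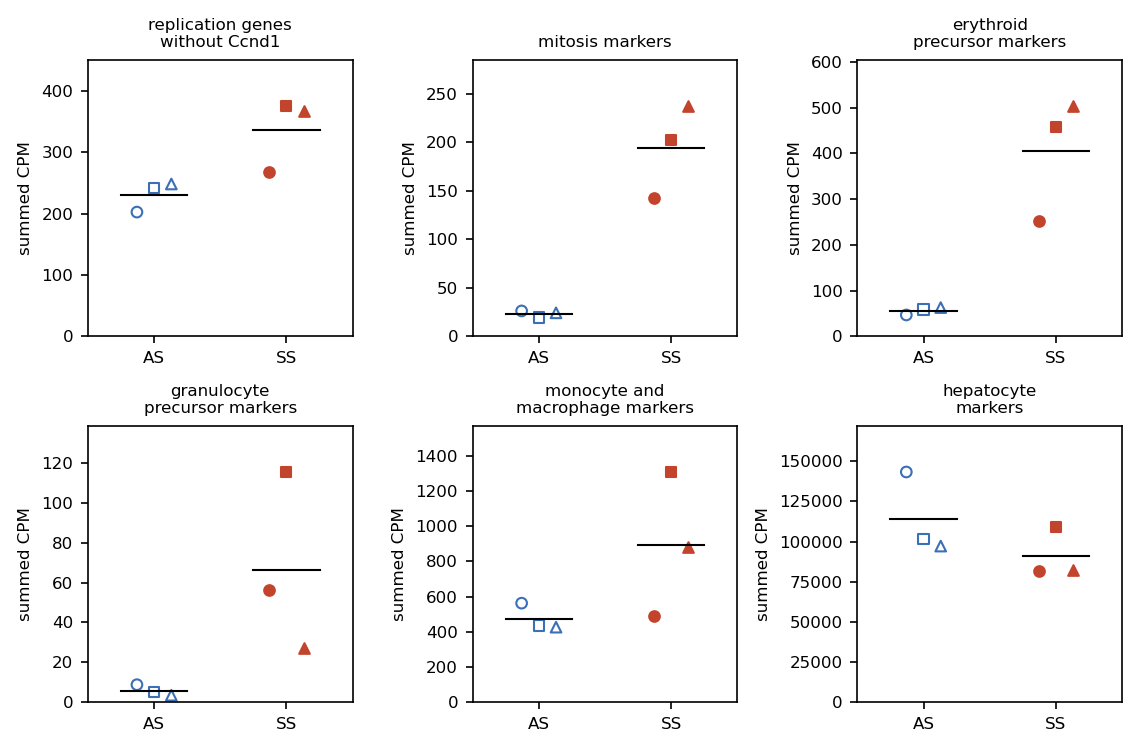
Summed CPM in each library of the replication genes without Ccnd1, mitosis markers and 4 cell type marker lists; bars mark the mean of 3 libraries, circles replicate 1, squares replicate 2 and triangles replicate 3. SS replicate 1 is the lowest SS library for replication genes, mitosis markers and erythroid precursor markers.

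SS libraries differed among themselves. SS replicate 1 was the lowest of its group for 23 of 37 members, and SS replicates 2 and 3 were lowest for 4 and 10. SS replicate 3 was highest for 17 members and SS replicate 2 for 14. SS replicate 1 was also the lowest SS library for summed mitosis markers and erythroid precursor markers, as the plot of summed levels shows, whereas granulocyte precursor markers were lowest in SS replicate 3. It was also the library with the largest share of records in no counted feature, whose part in these values was not tested. Even so, summed replication genes of SS replicate 1 were above every AS library.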

How the data were processed

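Liver RNA-seq of 3 AS and 3 SS samples was used. The authors deposited raw read counts per gene symbol, one table per sample. HISAT2, HTSeq and the build mm10 are named in the submitters' processing notes. Versions, annotation and strand setting are not given in the sources used here. The 5 HTSeq counters for records not assigned to a gene (no feature, ambiguous, low quality, not aligned, not unique) stayed out of library sizes. The largest, records in no counted feature, was 40.7% to 54.0% of all records per library, unaligned ones included. Reads carry no molecular identifiers here, so intervals and floors cover counting error only.

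Genes passing edgeR's filterByExpr (minimum count 10, minimum total 15), 12622 of 24421, were fitted together, SS against AS, with edgeR 4.0.16 in R 4.3.3 (trimmed-mean factors, robust quasi-likelihood, two-sided). Benjamini-Hochberg adjustment ran over all of them, with calls under 0.05. Only listed genes are printed. CPM was computed from these counts with the same factors. SE came from the F statistic. Scripts were tested on simulated data in 5 runs, where 7.8% of 2-fold and 70% of 4-fold changes were called. False calls averaged 8.4 per run. A gene that was not called may therefore still differ. Alternatives were other scalings and filters, a replicate block, DESeq2 1.42.0, limma-voom (limma 3.58.1), each library left out, AS replicates 2 and 3 summed, and 2 libraries left out together.

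Members and lists were chosen with earlier results of these data known. Values per library are given for called members, for the member of lowest p in role groups without a call, and for Pcna, E2f1, Ccnd1, Ccne1 and Ccne2. From the other lists, the rule named up to 4 called genes in each direction with Cdkn1a, Rb1, Rpa1 and Rpa2, the mitosis marker Mki67, and up to 2 abundant genes per marker list. Other members, and marker genes at 0, were singled out after their values were seen. Coordinates and exon lengths are from GENCODE vM21 (mm10) and promoters from RefSeq (GRCm38.p6). Pclaf was matched by an older symbol, and 1 erythroid marker was not matched.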

Additional observations from a re-analysis of the deposited data

How the results depend on the processing

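The members' median log2 fold change moved by less than its spread between SS libraries (0.32) under every alternative. Library totals alone moved the median of all genes by 0.28, and relative to it the members' median was 0.89 beside 0.90. That relative value was 0.73 without the low-count filter, 0.74 with DESeq2, 0.75 without SS replicate 2 and 1.09 without SS replicate 1. Calls were less stable. From 3 members called higher, DESeq2 gave 6, leaving out AS replicate 1 and SS replicate 3 together gave 6 with 1 lower (Mcm10), summing AS replicates 2 and 3 gave 1, and leaving out each library gave 0 to 1. Of the wider replication machinery (2 called higher), DESeq2 called 4, limma-voom 0, the summed pair 0 and single omissions 0 to 1. Of the G1/S control genes (3 called higher), limma-voom and the summed pair called 1 each and single omissions 0 to 2. Over all genes, 122 were called. The count was 217 without the low-count filter, 370 with DESeq2, 31 with limma-voom, 31 with the summed pair, 662 without AS replicate 1 and SS replicate 3, and 22 to 99 with single omissions. The cause was not tested, beyond the loss of samples in the fits that leave some out.

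Deviations from the group mean in same-numbered samples had correlations of 0.05, -0.12 and 0.19 between groups. With 3 samples per group these values are not independent, so they cannot show whether the numbers mark pairs. The main fit used no pairing. With the replicate number as a block, 10 members, 5 genes of the wider machinery and 460 of all genes were called.

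Signs turned for 4 members. Gins1 was 0.062 with library totals and -0.44 to 0.18 with single omissions (0.18 without AS replicate 2). Tk1 was 0.16 with library totals and -0.29 to 0.027 with single omissions (0.027 without SS replicate 1). Cdc45 was -0.23 without AS replicate 1 and SS replicate 3. Rfc3 was -0.0051 with median-ratio factors, -0.015 with DESeq2, -0.060 with limma-voom, -0.012 with the summed pair and -0.23 to 0.20 with single omissions (below 0 without AS replicate 2 or SS replicate 1). Of 713 gene values under alternatives, 635 kept their sign and side of the threshold, 51 lost a call, 16 gained one and 11 changed sign. With 4 forms of the E2F consensus, chosen after seeing the data, 34.3% of member windows and 2.27% of all windows held a match, and with 1 form 11.4% and 1.07%. Scarce members rest on few reads: Orc1 and Cdc6 had under 10 AS reads in all, as did Esco2, Chtf18 and Neil3.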

Other observations

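A pair of genes was picked from the wider replication list after their values were seen, and neither was called. Dbf4, which activates the kinase that fires origins, was at 0.461, 0.967 and 1.14 CPM in AS and 4.35, 4.50 and 5.56 CPM in SS. Every SS library was above every AS library, with a log2 fold change of 2.46 (SE 0.560, edgeR adjusted p = 0.0800). Rpa3, the small subunit of the single-strand binding complex, went the other way. It was at 17.9, 16.3 and 15.7 CPM in AS and 9.76, 9.93 and 7.36 CPM in SS, with a log2 fold change of -0.88 (SE 0.287, edgeR adjusted p = 0.238). Its groups did not overlap either, while those of Rpa1 and Rpa2 did.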
